A study of Homo sapiens with 4 samples.

Results

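ADGRV1 is the gene of a giant receptor of the adhesion G protein-coupled class that builds the ankle links of hair bundles in the inner ear and sits at the photoreceptor cilium of the retina. The introns of this gene were followed from its 5′ to its 3′ end in nascent RNA of the K562 line, which was derived from a chronic myeloid leukaemia. Members were all rows naming a transcript of ADGRV1 on the plus strand of chromosome 5 (hg38), with identical intron coordinates counted once. This gave 116 introns, of 209481 in all, out of 118 that GENCODE release 29 annotates for the gene. Reads were present at 98 and 109 of them in the K700E samples and at 112 and 104 in the WT samples. In every sample, 81 had at least 10 reads, and 64 of these remained after only the most used of each set of overlapping introns was kept. The gene was chosen by measured values, the splicing efficiencies of introns 24, 27 and 36 in K700E against WT, so splicing differences between the genotypes are given here as a description, without a test.

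The groups were 2 samples of K562 cells expressing SF3B1 with the K700E substitution and 2 expressing wild-type SF3B1 (WT). All 4 were treated with doxycycline at 1 µg/ml to induce the allele and harvested at day 4. Chromatin-bound RNA was isolated with α-amanitin in the buffers, depleted of polyadenylated and ribosomal RNA, ligated to a 3′ adapter and sequenced as long reads. The labels do not say whether replicates came from separate cultures or whether each line is 1 clone, so the spread between replicates may be technical.

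Overlaps of a read with an intron, over all introns, numbered 459681 and 909621 in K700E and 1346733 and 1185006 in WT, so K700E replicate 1 was the shallowest. The labels give the cell type as epithelial, whereas K562 is known as a line with erythroid features. Reads were found for 13 of 15 erythroid marker genes, summing to 1832 and 2444 overlaps per 1000000 in K700E and 2605 and 4400 in WT; KLF1 and EPOR were at 0 in every sample. Most of these overlaps, 730 of 842 and 1716 of 2223 in K700E and 2816 of 3508 and 3571 of 5214 in WT, came from TFRC, the transferrin receptor gene, which many dividing cells express. Reads were found for 6 of 8 epithelial marker genes, at 58.7 and 89 overlaps per 1000000 in K700E and 70.5 and 50.6 in WT, with CLDN4 and GRHL2 at 0. Of 8 hair cell and photoreceptor genes 5 had no read, and the list summed to 8.70 and 6.60 overlaps per 1000000 in K700E and 13.4 and 0 in WT.

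Introns are removed by the spliceosome while RNA polymerase II is still transcribing, so a nascent transcript can carry spliced and unspliced introns together. SF3B1 belongs to the U2 small nuclear ribonucleoprotein, which recognises the branch point upstream of the 3′ splice site. K700E is a recurrent substitution in myeloid neoplasms and is known for the use of cryptic 3′ splice sites, commonly a short distance upstream of the annotated one. Splicing efficiency is, for 1 intron, the percentage of its reads in which the annotated junction was found. Use of an unannotated splice site far enough from the annotated one leaves a read among those without the junction. The tables cannot tell such a read from an unspliced one. Sites a few nt apart are not resolved, as described below.

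The 3 introns on which the results turn join exons whose sequence at the junction is shown here, with the last 30 bases of the upstream exon in lower case and the first 30 bases of the downstream exon in capitals (GRCh38, plus strand, read from the GENCODE transcript ENST00000405460).
intron 24: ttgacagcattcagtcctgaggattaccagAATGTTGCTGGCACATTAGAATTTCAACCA
intron 27: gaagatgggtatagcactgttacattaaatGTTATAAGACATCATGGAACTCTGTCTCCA
intron 36: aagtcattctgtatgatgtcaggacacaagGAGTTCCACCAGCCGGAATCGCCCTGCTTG

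The exon before intron 27 ends in AAT, while those before introns 24 and 36 end in CAG and AAG. A final G on the upstream exon is the usual letter there: among the 63 of the 64 that belong to ENST00000405460, 57 followed an exon ending in G and 44 an exon ending in AG. Across the 4605 non-overlapping introns of all genes with at least 10 reads in every sample, 80.1% followed an exon ending in G and 57.5% one ending in AG. The other introns among these 63 after an exon that does not end in G were numbers 28, 45, 58, 68 and 79. Their differences between K700E and WT lay between -2.98 and 7.59 percentage points. Whether the exon end bears on the difference at any intron was not tested. The intron sequence itself, including the branch point region and the 3′ splice site, was not used here.

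Reads were spread unevenly along the gene, which spans 605638 nt and 90 exons in ENST00000405460 (chr5:90558800-91164437). Over introns 1 to 11, no read was found in K700E replicate 1 and at most 4 per intron in K700E replicate 2, against at most 3 and 1 in the WT samples, so almost no read covered the annotated 5′ end. Intron 12 was covered by 11 and 28 reads in K700E and 6 and 25 in WT, against 0 and 4 in K700E and 0 and 1 in WT at intron 11. The annotated start of another coding transcript, ENST00000640403, lies in intron 11 at position 90640718.

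In number of reads, a larger step followed at exon 21. Intron 20 had 15 and 24 reads in K700E and 36 and 38 in WT, whereas intron 21 had 75 and 95 in K700E and 160 and 342 in WT. The count over intron 21 was thus 5 and 3.96 times that over intron 20 in K700E and 4.44 and 9 times in WT. As a ratio, the step from intron 11 to 12 was larger where intron 11 had reads. It was 7 in K700E replicate 2 and 25 in WT replicate 2, on few reads. Exon 21 (90657905 to 90658278) holds the annotated start of ENST00000639473, a transcript of the retained-intron class, at 90658068. The step was present in every sample, and whether reads began there or were cut short there was not tested.

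Among the introns of ENST00000405460, coverage was highest at intron 22, with 102 and 116 reads in K700E and 273 and 388 in WT. It was lower downstream: intron 36 had 51.0% and 37.1% of the reads over intron 22 in K700E and 76.2% and 31.2% in WT. The replicates of WT differed by more than the genotypes there. Intron 82 still had 26.5% and 24.1% in K700E and 10.6% and 21.4% in WT. Over introns 87 to 89 no K700E read was found, and WT counts per intron were at most 3 and 2.

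**Figure D1:**
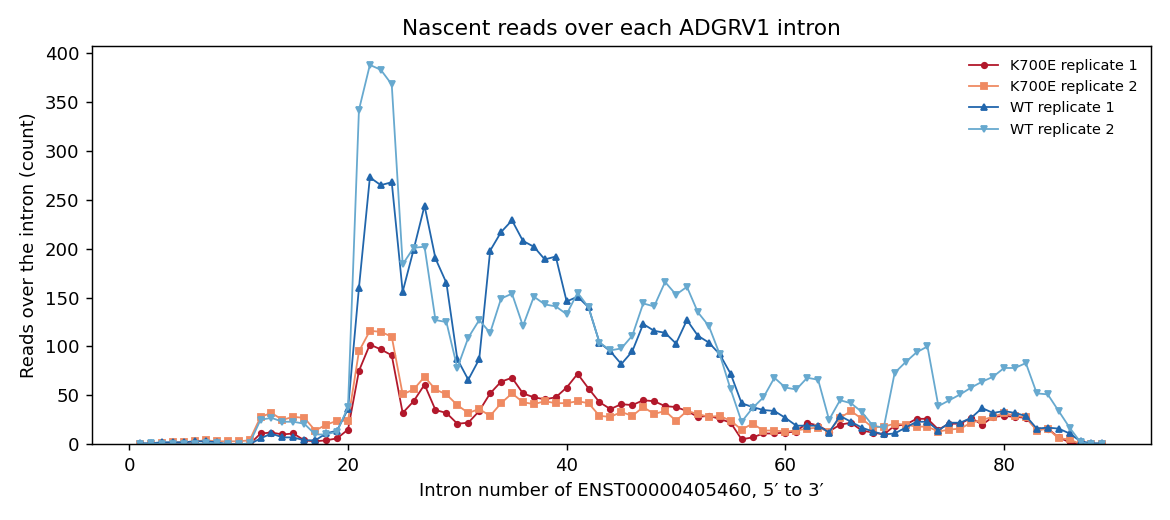
Reads over each of the 89 introns of ENST00000405460 (count, not normalized) against intron number from 5′ to 3′; each line is 1 sample. Counts are near 0 over introns 1 to 11, step up at intron 21 to a maximum at intron 22 in all 4 samples, and are near 0 again from intron 87.

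Summed over all 116 introns, ADGRV1 had 6220 and 3500 overlaps per 1000000 in K700E and 5717 and 8156 in WT. The groups overlapped: K700E replicate 1 lay between the WT replicates, and K700E replicate 2 was below all others. The log2 ratio of K700E to WT means was -0.51, with -0.99 when K700E replicate 1 was left out and -0.16 when K700E replicate 2 was. These bulk samples cannot tell the number of cells transcribing the gene from the amount of its RNA per cell. Among 5004 genes with at least 10 overlaps in every sample, 11.8% had both K700E values below both WT values and 24.5% had both above; ADGRV1 was in neither set.

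Most ADGRV1 introns were spliced in nearly all reads in both genotypes. The median over the 64 introns was 95% and 94.1% in K700E and 98.2% and 92.8% in WT, and 44 and 42 introns in K700E and 53 and 38 in WT reached at least 90%. Junction reads over all reads, summed over these introns, stood at 90.7% and 87.8% in K700E and 94.1% and 92.9% in WT. Both K700E values lay below both WT values, which was also so for 41.9% of the 31 genes with at least 20 such introns. Without introns 24, 27 and 36 the sums were 93.4% and 91.1% in K700E and 93.8% and 92.7% in WT, and the groups overlapped.

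Intron 27 (chr5:90681455-90683585, 2131 nt, between exons 27 and 28) had the lowest difference of the 4605 introns, -53.1 percentage points. The gene was chosen partly by this value, so its rank and the separation of the samples are a description only. An intron of another gene also lay between -54 and -52 points. In K700E, 30 of 61 and 24 of 69 reads carried its junction, against 238 of 244 and 187 of 202 in WT. These are 49.2% and 34.8% in K700E and 97.5% and 92.6% in WT. Their 95% Wilson intervals, which cover counting error only, were 37.1 to 61.4% and 24.6 to 46.6% in K700E and 94.7 to 98.9% and 88.1 to 95.4% in WT. The genotypes did not overlap, and neither did the intervals. Reads without the junction numbered 31 and 45 in K700E and 6 and 15 in WT, so they were more numerous in K700E although fewer reads covered the intron. The annotated junction that skips exon 28 was found in 1 and 0 reads in K700E and 0 and 1 in WT.

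Intron 36 (chr5:90704489-90705399, 911 nt) showed a difference of nearly the same size, -50.2 percentage points. Its junction was in 23 of 52 and 13 of 43 reads in K700E and 190 of 208 and 101 of 121 in WT, or 44.2% and 30.2% in K700E and 91.3% and 83.5% in WT. The lowest WT sample stood well above the highest K700E sample. Wilson intervals were 31.6 to 57.7% and 18.6 to 45.1% in K700E and 86.7 to 94.5% and 75.8 to 89% in WT. Reads lacking the junction numbered 29 and 30 in K700E and 18 and 20 in WT.

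Intron 24 (chr5:90675446-90676079, 634 nt) was the best covered of the 3. Its junction was in 77 of 91 and 92 of 110 reads in K700E, or 84.6% and 83.6%, and in 100% and 99.7% of reads in WT, where 268 and 368 reads covered it. In WT replicate 1 the table lists 278 junction reads for these 268 reads, a value set to 100%, and in WT replicate 2 it lists 367. The means were 84.1% ± 0.692 in K700E and 99.9% ± 0.192 in WT (SD, n = 2 each), a difference of -15.7 points. None of the other 115 ADGRV1 introns in the tables overlaps intron 24 or intron 36.

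Introns next to these 3 did not share their differences in full. Intron 23, upstream of intron 24, stood at 94.8% and 96.5% in K700E and 98.1% and 98.4% in WT, a difference of -2.59 points. Intron 28, downstream of intron 27, stood at 97.1% and 100% in K700E and 100% and 98.4% in WT. Intron 35 was at 89.7% and 73.1% in K700E and 92.6% and 89.6% in WT, where K700E replicate 1 overlapped WT. Intron 37 was at 93.8% and 97.6% in K700E and 98.0% and 96.7% in WT. One long read can cover several introns and counts in each, so neighbouring values are not independent.

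**Figure D2:**
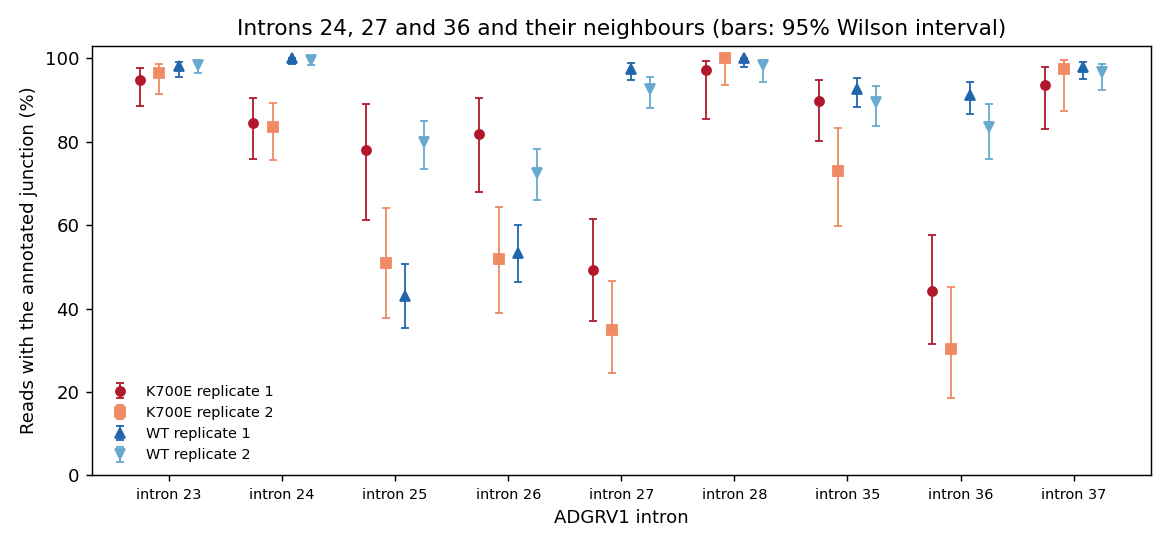
Percentage of reads with the annotated junction at introns 24, 27 and 36 and their neighbours; each point is 1 sample and bars are 95% Wilson intervals (counting error only). At introns 24, 27 and 36 both K700E points lie below both WT points, with differences of -15.7, -53.1 and -50.2 percentage points, whereas at introns 25 and 26 the replicates of both genotypes lie apart.

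Introns 25 and 26, which lie between introns 24 and 27, differed more between replicates than between genotypes. Intron 25 (chr5:90676210-90679548) was spliced in 78.1% and 51.0% of reads in K700E and 42.9% and 79.9% in WT. Intron 26 was spliced in 81.8% and 51.8% in K700E and 53.3% and 72.6% in WT. In both introns K700E replicate 1 and WT replicate 2 were high and the other pair low, and 1 read can count in both. Reads over intron 25 were also fewer than over intron 24, at 35.2% and 46.4% of that count in K700E and 58.2% and 50.0% in WT. An annotated shorter alternative of intron 25, ending at 90676758, had 1 and 3 junction reads in K700E and 16 and 1 in WT.

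Exon 31 is annotated with a pair of 5′ splice sites that are 83 nt apart, and the upstream one was the more used in every sample. The upstream donor belongs to 2 transcripts of the nonsense-mediated decay class and the downstream donor to 5 transcripts, ENST00000405460 among them. The 3′ end of exon 31 is shown from 15 bases before the upstream donor, whose GT is in capitals (chr5:90690944-90691041, GRCh38, plus strand), followed by both junctions with the first 15 bases of exon 32 in capitals.
exon 31 end: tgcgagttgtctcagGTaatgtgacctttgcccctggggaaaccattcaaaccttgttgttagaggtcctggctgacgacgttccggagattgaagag
upstream donor junction: tgcgagttgtctcagGTTATCCAAGTGCAA
downstream donor junction: ccggagattgaagagGTTATCCAAGTGCAA

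Junction reads from the upstream donor numbered 14 and 17 in K700E and 53 and 82 in WT, and those from the downstream donor 4 and 9 in K700E and 10 and 18 in WT. The downstream donor thus took 22.2% and 34.6% of these reads in K700E and 15.9% and 18% in WT. Both K700E values lay above both WT values, but the Wilson intervals overlapped: 9.0 to 45.2% and 19.4 to 53.8% in K700E and 8.86 to 26.8% and 11.7 to 26.7% in WT. Efficiency of the intron from the upstream donor (chr5:90690959-90692604) was 63.6% and 60.7% in K700E and 81.5% and 75.2% in WT. With either donor counted, 81.8% and 92.9% of reads in K700E and 96.9% and 91.7% in WT were spliced, and the groups overlapped.

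Other annotated alternatives were little used. Of 27 introns that overlap a more used one, 19 had no junction read in any sample. A cassette exon within intron 22 was joined to exon 22 in 1 and 3 reads in K700E and 10 and 5 in WT, of 106 and 117 reads in K700E and 287 and 395 in WT. At intron 25, 3′ splice sites 3 nt apart had identical junction counts in every sample, 25 and 26 in K700E and 67 and 147 in WT, so sites this close are not resolved. At intron 19, where the annotated sites are 12 nt apart, the farther one had 0 junction reads in every sample.

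Of the 64 introns, 13, or 20.3%, had both K700E efficiencies below both WT efficiencies, and 5, or 7.81%, had both above. The same held for 19.8% (lower) and 8.34% (higher) of all 4605 introns, so the gene as a whole was near the background. With a difference of at least 10 points as well, 4 of the 64 ADGRV1 introns were lower and 2 higher. Of all 4605 introns, 454 (9.86%) were lower and 155 (3.37%) higher, so neither ADGRV1 share was above the background. The 4 were introns 24, 27 and 36 and the intron from the upstream donor of exon 31. The nearest below that limit was intron 34, with 89.1% and 78.6% in K700E and 94.0% and 91.3% in WT, or -8.83 points. Intron 53 followed at -7.29, and the other 7 of the 13 differed by -5.13 to -0.59 points.

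The 2 introns that were higher by at least 10 points rested on fewer reads. Intron 13 was spliced in 12 of 12 and 24 of 32 reads in K700E and 6 of 11 and 19 of 27 in WT, or 100% and 75% in K700E and 54.5% and 70.4% in WT. Intron 71 was spliced in 19 of 20 and 17 of 20 reads in K700E and 12 of 17 and 70 of 84 in WT, or 95% and 85% in K700E and 70.6% and 83.3% in WT. Both intervals of intron 71 in K700E overlapped both of those in WT. These 2 introns, introns 25 and 26 and the intron from the upstream donor of exon 31 were also the 5 with the lowest mean efficiency in WT, at 61.4 to 78.4%.

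**Figure D3:**
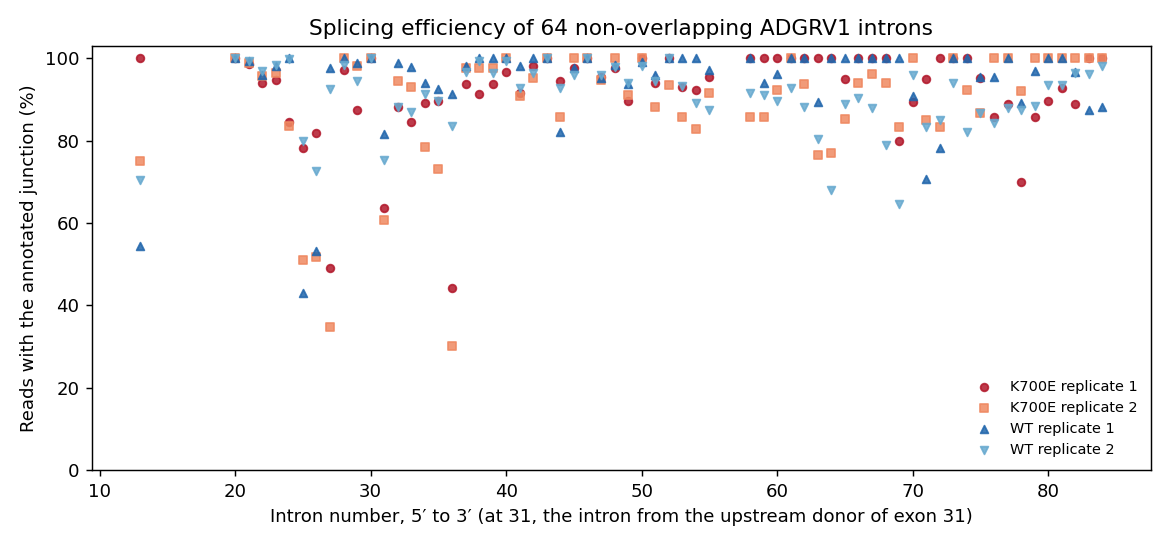
Percentage of reads with the annotated junction at the 64 ADGRV1 introns described above, against intron number from 5′ to 3′; each point is 1 sample. Most points lie above 80%, and the K700E points of introns 27 and 36, at 30.2 to 49.2%, are the lowest of K700E.

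By position, all 4 introns from 21 to 24 and 4 of the 12 from 25 to 36 were lower in K700E without overlap of the genotypes. Over all 4605 introns, 19.8% were lower and 8.34% higher without overlap. These 2 parts end at introns 24 and 36, and the gene was chosen by introns 24, 27 and 36. The differences at introns 21 and 22 were small, -0.59 and -1.54 points, and their K700E values were 98.7% and 98.9% at intron 21. Of the 19 introns from 37 to 55, 5 were lower and 1 higher. Of the 12 from 56 to 69, neither direction held for any, and of the 15 from 70 to 86 none was lower and 3 were higher. Read counts were lower in the 3′ part too, with medians per intron of 12.5 and 16.5 in K700E and 21 and 43.5 in WT over introns 56 to 69, and the part of depth in this pattern was not tested.

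Intron length was not matched by a clear trend. The 17 introns under 1000 nt had median efficiencies of 94.4% and 91.2% in K700E and 98.0% and 93.6% in WT. The 24 introns of 3000 nt and over, up to 101557 nt for intron 83, had 98.0% and 99.5% in K700E and 97.9% and 95.1% in WT. Spearman's rho between length and mean efficiency was 0.17 in K700E and -0.05 in WT over the 64 introns, which share libraries and reads. In 55 comparisons of introns with the same 5′ splice site, the longer had fewer reads in 40, as many in 15 and more in 0. Reads that cover an intron only in part were therefore not all counted.

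Over the 64 introns, the median gap between replicates was of similar size in both genotypes, although fewer reads covered them in K700E. Over all 4605 introns it was 6.74 points in K700E and 4.65 in WT. For the 64 it was 6.34 points between the K700E replicates and 6.36 between the WT replicates. The median absolute difference between genotype means was 2.99. Means of 2 samples scatter less than single samples, so these values are not directly comparable. Gaps of at least 20 points occurred at 6 introns between the K700E replicates and 4 between the WT replicates. Genotype means differed by at least 20 points at 3 introns, numbers 13, 27 and 36.

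A fit across all introns with edgeR's quasi-likelihood test called 3 of 66 ADGRV1 introns tested (24, 27 and 36), all lower in K700E. Its dispersion was set to 0, a form that an earlier analysis of these data used after seeing the default fit. Of all 5093 introns this fit called 0.0785% lower, 0.0196% higher and 0.0982% in either direction. As the gene was picked with this contrast known, nothing is read from that count. With an estimated dispersion it called only intron 24 of the gene, with DESeq2 none, and with the replicate number as a block introns 27 and 36. On simulated counts, the fit with dispersion 0 called 48% of introns at a log2 odds change of 4 and 0% at 2. The fit with an estimated dispersion called 0% at either change. The changed introns were drawn from all genes at their own depths, so nothing is read from this about introns 24, 27 and 36. Without K700E replicate 2 none was called and without K700E replicate 1 only intron 27.

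**Figure D4:**
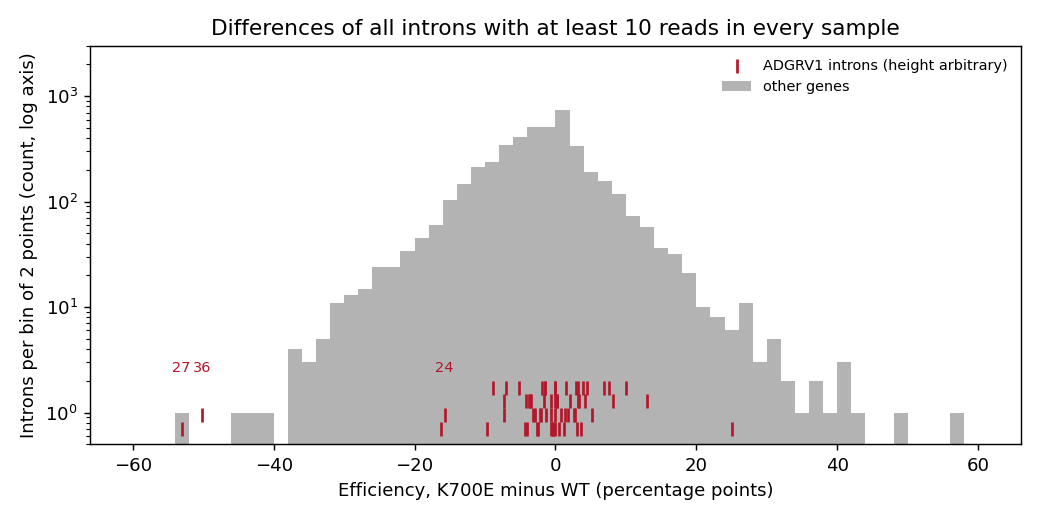
Difference in efficiency, K700E minus WT (percentage points), for the introns of other genes as grey bars (introns per bin of 2 points, log axis) and for 64 ADGRV1 introns as ticks whose height has no meaning. Introns 27 and 36 lie at the low end, at -53.1 and -50.2, and the median of the 64 is -0.22, against -1.67 over all 4605 introns.

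With introns 24, 27 and 36 left out, the remaining 61 had a median difference of 0.00 points. Only 1 gene of 839 had more non-overlapping introns that reached 10 reads per sample than ADGRV1.

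The genes whose summed efficiency over the 4 samples was nearest to that of ADGRV1 were AHCTF1, a nuclear pore assembly factor, IARS, isoleucyl-tRNA synthetase, FANCI, of the Fanconi anaemia pathway, and the ubiquitin ligase genes HUWE1 and UBR4. Their distances were 1.65, 4.03, 4.88, 5.76 and 5.79 percentage points. AHCTF1 stood at 89.3% and 88.7% in K700E and 93.9% and 92.8% in WT over 21 introns. Its median difference per intron was -4.28 points, while that of ADGRV1 was -0.22. UBR4, with 71 introns, had 34 lower and 4 higher without overlap and a median of -5.70. The matching used both genotypes, so it favoured genes with a difference in summed efficiency like that of ADGRV1. That ADGRV1 difference was -4.27 points, and -0.99 without introns 24, 27 and 36. The contrast in medians was thus partly set by the matching, and nothing is read from it. Among all 31 genes that could be matched, ADGRV1 included, 23 had a lower median than ADGRV1.

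Partners of the protein were scarcely read. Of 11 other Usher syndrome and ankle link genes, 8 had any read, and the list summed to 27 and 4 overlaps in K700E and 47 and 53 in WT. Per 1000000 overlaps, the list stood at 58.7 and 4.40 in K700E and 34.9 and 44.7 in WT, so the groups overlapped. Counts of single genes given here are raw, and both K700E samples had fewer overlaps in all than both WT samples. No difference between the genotypes is therefore read from them. WHRN, the scaffold whirlin that binds the receptor's tail, had 4 and 4 overlaps in K700E and 10 and 25 in WT. Of 26 other adhesion G protein-coupled receptor genes, 18 had any read; ADGRG6 had 85 and 182 overlaps in K700E and 198 and 318 in WT. Of 8 neighbours on chromosome 5, 7 had any read: ARRDC3, an arrestin-domain gene, had 9 and 118 in K700E and 354 and 67 in WT, with overlapping groups. No gene of these 3 lists had an intron with at least 10 reads in every sample, so none entered the test.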

How the data were processed

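For each sample the authors deposited a table with 2 raw counts per annotated intron: all reads over it, and those in which its junction was found. The same table holds the deposited ratio of these counts, CoSE, rounded to 2 decimals. Per the submitters' processing notes, cutadapt and minimap2 were used with hg38; versions and settings were not given in the sources used here. Tables of RNA 3′ ends bear no identifiers and were not used.

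Rows were placed on GENCODE release 29 (GRCh38) by transcript, number, start and strand (87.3 to 87.6% placed; all ADGRV1 rows). Rows with the same coordinates were merged, taking the larger count where they disagreed; junction counts above the reads over an intron were set to that number. Of overlapping introns, the one with most junction reads was kept. Library preparation names no molecular identifiers.

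edgeR 4.0.16 in R 4.3.3 (quasi-likelihood, dispersion 0, spliced and unspliced counts as paired columns, Benjamini-Hochberg threshold 0.05) was fitted over 5093 of the 6141 introns that had 10 or more reads per sample, those with both spliced and unspliced reads in the samples together. On simulated counts for 4729 introns, 48% of introns given a log2 odds change of 4 were called, 0% at a change of 2, and 0 without a change. The fit with an estimated dispersion called 0% at either change on the same counts. DESeq2 1.42.0 was an alternative.

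The members, lists and tests were chosen with earlier results of these data known. Introns named with full values were 24, 27 and 36, their neighbours, those at least 10 points apart without overlap and the 5 lowest in WT; like genes were the 5 nearest in summed efficiency. Other introns and genes given as examples were chosen after their values were seen. The values of 1 listed gene are not reported here.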

Additional observations from a re-analysis of the deposited data

How the results depend on the processing

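The number of introns called over all genes was 5, and it was 1 with an estimated dispersion, 0 with DESeq2 and 3 with a replicate block; in DESeq2, 118 had an unadjusted p under 0.05. Leaving out 1 sample gave 0 to 10 calls: 0 without K700E replicate 2 (70 at an unadjusted p under 0.05), 2 without K700E replicate 1 and 10 without WT replicate 2. Deviations of same-numbered samples correlated at -0.17 over 6141 introns, and nothing in the labels ties the numbers together. Replicates 1 and 2 of K700E are numbered 2 and 3 inside their tables, so the block rests on the titles' numbers. A block with the numbers crossed, added after the data were seen, called 5. The fit without WT replicate 1 or 2, or without K700E replicate 1 or 2, assumes that the lone sample varies like the pair.

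The 13 lower and 5 higher ADGRV1 introns became 15 to 26 and 8 to 21 with 1 sample left out, since fewer samples separate more easily. With at least 20 reads in every sample 1 was higher. The share over all introns was not computed under these settings, so nothing is read from these counts. The difference in summed efficiency, -4.27 points, ranged from -5.57 to -2.83 with 1 sample left out, the median difference from -2.94 to 0.15 and the log2 ratio of reads from -0.99 to -0.16. Differences at introns 24, 27 and 36 ranged from -16.2 to -15.2, -60.3 to -45.9 and -57.2 to -43.2. The difference at intron 24 has no value with ratios above 1 left out, since WT replicate 1 exceeds 1 there. The median of 28 and 29 reads per intron in K700E, against 84.5 and 97 in WT, limits what could be seen there.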
